A study of Drosophila melanogaster with 16 samples.

Results

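The transcripts described here encode eukaryotic initiation factors (eIF), elongation factors (eEF) and aminoacyl-tRNA synthetases (RS) of *D. melanogaster*. A gene was taken as a member when a probe set carried, as its only gene symbol, a name starting with eIF or eEF or a 3-letter amino acid code followed by RS, with or without the suffix -m for the mitochondrial enzyme. Where several probe sets named 1 gene, the one with the highest mean over all arrays was used. This gave 74 genes, measured by 80 probe sets, of 11982 genes with a probe set of their own. They comprised 40 initiation factor genes, 5 elongation factor genes, 15 cytosolic synthetase genes and 14 mitochondrial synthetase genes. All 74 symbols are in the gene table of the Release 6 assembly. Members were chosen by name alone, all 74 entered the test, and no filter on low values was set. Further genes of these families, such as *eIF2alpha*, *eIF2gamma*, *eEF2* and *eEF1alpha1*, were not analysed here.

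The arrays came from whole third-instar larvae that were fully grown but still feeding, at 25°C, with 10 larvae in a pool and 1 array for each pool. The groups were Ama-KTT/M/2 raised on food with α-amanitin (toxin-fed, 6 pools), the same stock without toxin (unexposed, 5 pools) and Canton-S without toxin (5 pools). Ama-KTT/M/2 is a resistant stock that is isogenic for chromosomes 2 and 3 of a wild-caught Asian stock but not for the X chromosome, whereas Canton-S is a sensitive wild-type laboratory stock. α-Amanitin inhibits RNA polymerase II. The dose was 1.5 μg per g of food in the methods, while the sample labels give 1.5 mg per g. The sex of the larvae and the tube of each larva are unknown. Per the paper, the larvae of each group were started over 3 days in many tubes. Pools were drawn at random from all tubes of a group, and all were collected on the same morning. Each p-value thus rests on the spread between pools from a shared rearing of each group, not between independent rearings. The paper also reports slower growth on α-amanitin, and the part of growth rate in the differences was not tested.

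Translation of a messenger RNA starts when the cap-binding protein eIF4E, the scaffold eIF4G and the helicase eIF4A bring the small ribosomal subunit to the capped end. That subunit carries eIF3, eIF1 and the initiator tRNA, which eIF2 delivers as long as the exchange factor eIF2B reloads it with GTP. Elongation factors then bring charged tRNAs to the ribosome, and each tRNA is charged by the synthetase of its amino acid, with separate enzymes for the cytosol and the mitochondrion in most cases. In growing larvae, the need for protein synthesis is large and is set by nutrition and by the growth pathways that sense it.

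Levels are array intensities on a linear scale, as deposited, and levels are compared between groups only within a probe set. Bright and dim refer to the intensity of a probe set, not to the amount of a transcript. Differences are log2 fold changes of intensity + 16, which understate the change of dim genes, with the standard error (SE) and the p-value of limma after Benjamini-Hochberg adjustment for all 18769 probe sets tested. A gene is called higher or lower at an adjusted p under 0.05, and the number at 2-fold or more is given beside it. The array medians lay between 62.4 and 72.9, and 19.3% to 22.9% of the probe sets of an array were under 16. No 2 arrays of 120 pairs held identical values. In the 69 members whose mean reached 64 in any group, the median coefficient of variation between pools was 6.37% in toxin-fed Ama-KTT/M/2, 5.59% in unexposed Ama-KTT/M/2 and 5.22% in Canton-S. The other 5 members, *eIF3d2*, *eIF4E4*, *eIF4E6*, *eIF4E7* and *eEFSec*, were dim in all groups. Pool 2 of toxin-fed Ama-KTT/M/2 and pool 4 of Canton-S stood apart from their groups in low salivary glue transcripts, and all unexposed Ama-KTT/M/2 pools had the 7 glue genes under 16, with the values and the counts without the 2 pools given at the end.

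Most members had their highest level in unexposed Ama-KTT/M/2. Between the stocks on non-toxic food, 57 members were higher and 2 were lower in unexposed Ama-KTT/M/2 relative to Canton-S, whereas 15 did not pass the test. Among all genes, 28.7% were higher and 20.3% were lower. The median log2 fold change was 0.37 over the members and 0.02 over all genes, and 18.5% of all genes lay above the median of the members. The shift was broad but small, since only *eIF6* reached 2-fold upwards, against 4.26% of all genes, and no member did so downwards, against 2.85%. All 5 pools of Ama-KTT/M/2 lay above all 5 pools of Canton-S at 54 members, where 22.9% of all genes did so, and below them at 1 member, where 14.5% of all genes did so. The background among the 8141 genes whose mean reached 64 in any group is also given, of which 36.6% were higher and 22.2% lower.

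On α-amanitin, the direction within Ama-KTT/M/2 was the other way round. Here 49 members were lower and 2 were higher on α-amanitin than on non-toxic food, and 23 did not pass. Of all genes, 19.6% were lower and 21% were higher, and of those whose mean reached 64, 26% were lower and 22.5% were higher. The median was −0.24 over the members and 0.02 over all genes, with 18.2% of all genes below the median of the members. No member reached 2-fold in either direction, where 2.31% of all genes were higher and 1.52% lower at that limit. The pools did not overlap at 43 members that were lower, against 14.3% of all genes, and at 2 that were higher, against 12.5%. These 2 comparisons share the 5 pools of unexposed Ama-KTT/M/2, so that a deviation of these pools would enter both with opposite sign.

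Compared with Canton-S, toxin-fed Ama-KTT/M/2 had 34 members higher and 3 lower, with 37 not passing, whereas 22.8% of all genes were higher and 12.1% were lower (28.6% and 14.2% of those whose mean reached 64). The median was 0.15 over the members and 0.07 over all genes. Again no member reached 2-fold, against 1.8% of all genes upwards and 1.97% downwards. The pools were apart at 24 higher members (13.3% of all genes) and at 1 lower member (8.33%). With quantile normalization of the log2 values applied again, 20 members were higher and 5 lower, so that 80.0% of the calls were higher in place of 91.9%, and among all genes 51.7% in place of 65.3%. In terms of the 3 group means, 56 members were highest in unexposed Ama-KTT/M/2 and lowest in Canton-S, with toxin-fed Ama-KTT/M/2 between them. A further 7 members were highest in unexposed Ama-KTT/M/2 but lowest on α-amanitin, 9 were lowest in unexposed Ama-KTT/M/2, and 2 were highest on α-amanitin. This order of means takes no account of the spread between pools.

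**Figure D1:**
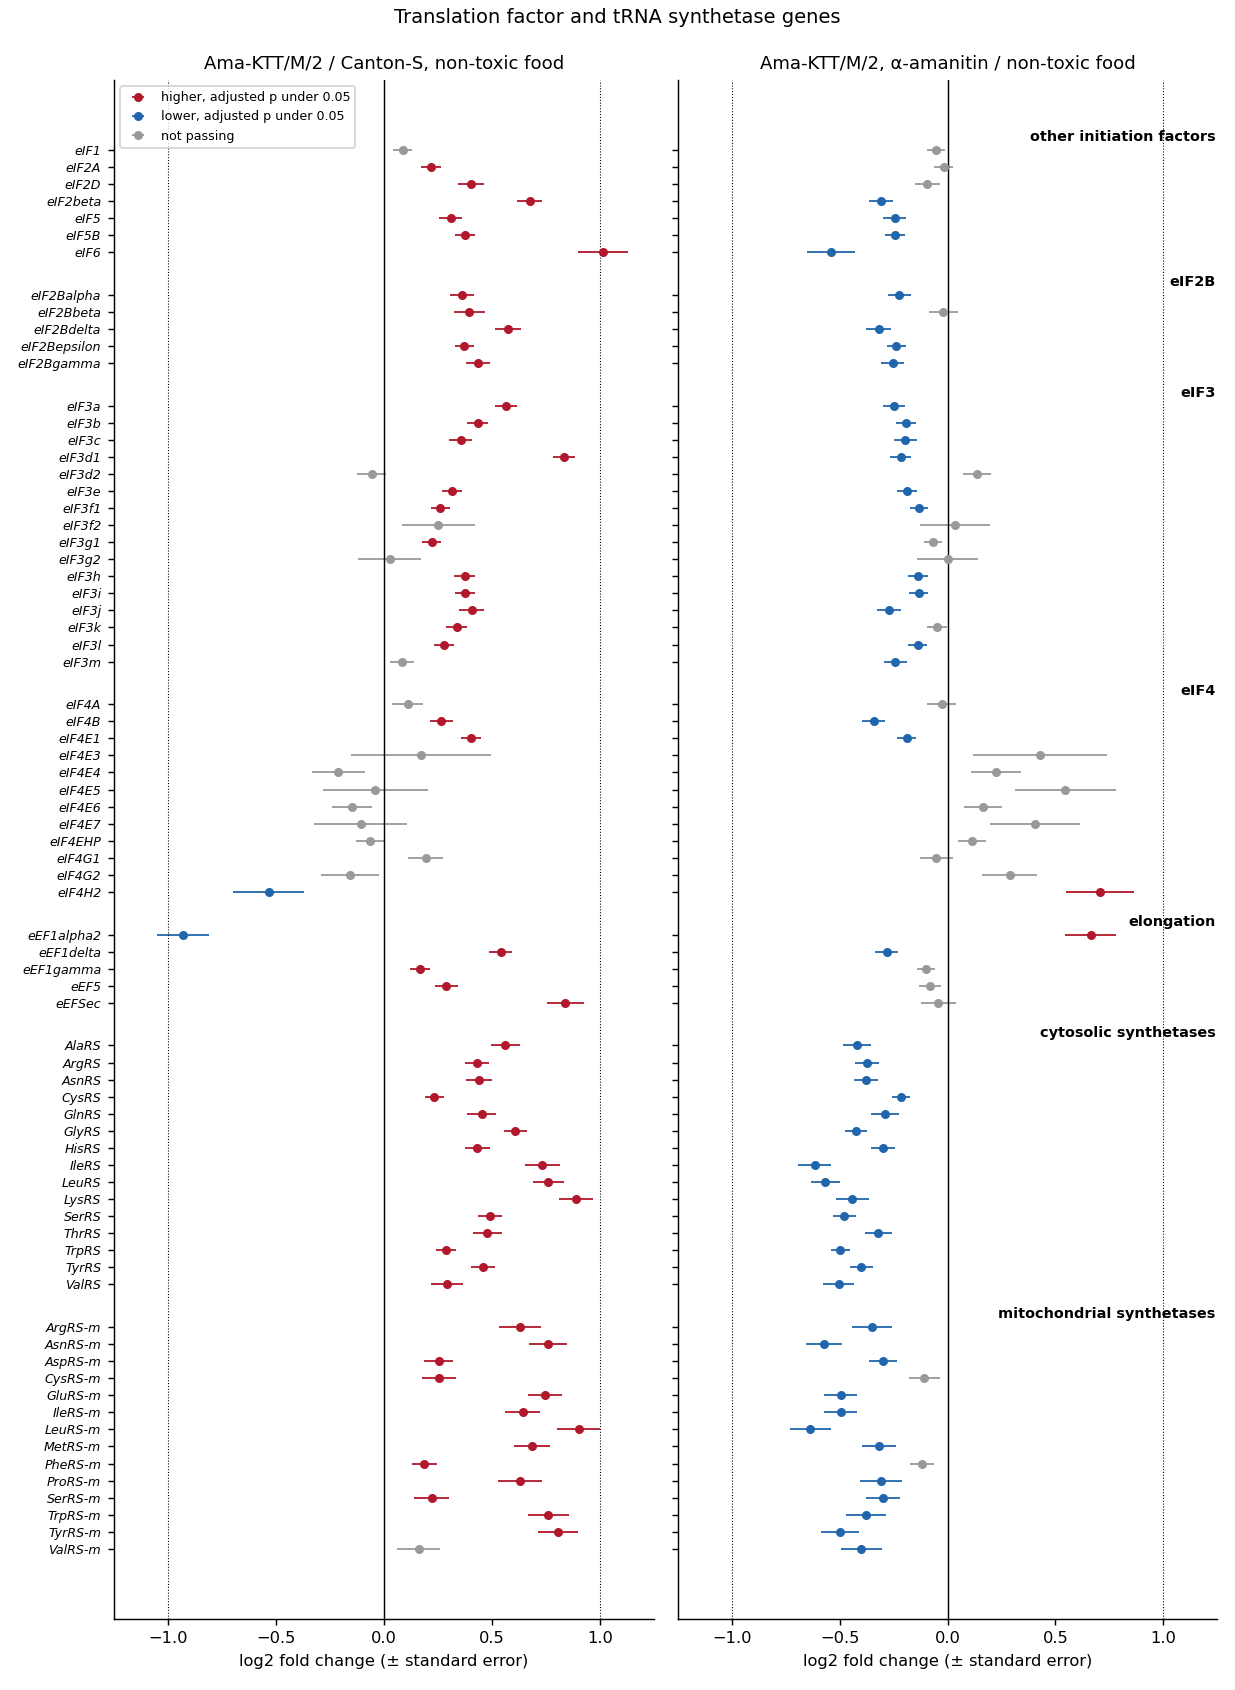
Log2 fold change of each of the 74 members (points, with the standard error as bars) of unexposed Ama-KTT/M/2 over Canton-S (left) and of toxin-fed over unexposed Ama-KTT/M/2 (right), ordered by role; red is higher, blue is lower and grey did not pass an adjusted p of 0.05, and dotted lines mark 2-fold. On the left 57 members are higher, on the right 49 are lower, and 10 of the 12 eIF4 genes belong to neither count.

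**Figure D2:**
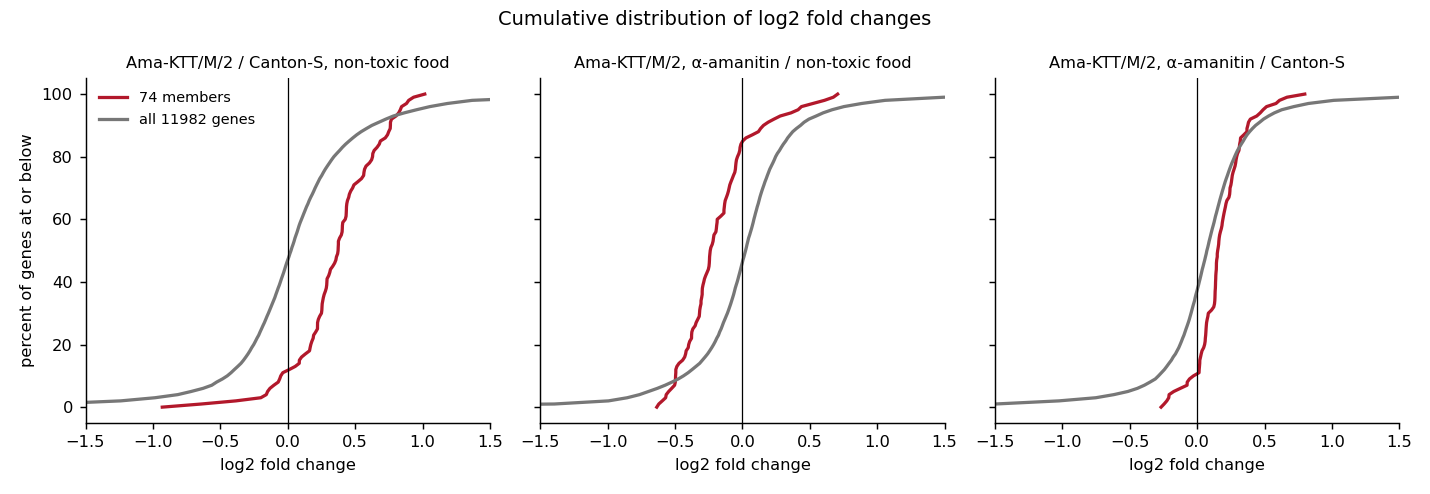
Cumulative share of genes (y axis, percent) against the log2 fold change (x axis) for the 74 members (red) and all 11982 genes (grey) in the 3 comparisons. The medians of the members are 0.37, −0.24 and 0.15, against 0.02, 0.02 and 0.07 for all genes.

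Among the initiation factors outside the eIF2B, eIF3 and eIF4 groups, 6 of 7 were higher in unexposed Ama-KTT/M/2 relative to Canton-S (median 0.38) and 4 of 7 were lower on α-amanitin (median −0.24). The shares of all genes were 28.7% higher between the stocks and 19.6% lower on α-amanitin. *eIF6*, whose product binds the large ribosomal subunit and keeps it from joining the small one too early, had the largest difference of all members. Its intensities were 478, 633 and 783 (lowest, median and highest of 6 pools) in toxin-fed Ama-KTT/M/2, 1035, 917, 964, 812 and 871 in unexposed Ama-KTT/M/2 and 405, 411, 504, 523 and 397 in Canton-S. The pools on non-toxic food of the resistant stock were all above those of both other groups, and only the pools on α-amanitin and those of Canton-S overlapped. *eIF6* was thus 2.02-fold higher in unexposed Ama-KTT/M/2 relative to Canton-S (log2 1.02, SE 0.12, limma adjusted p = 2.43e-06), and its log2 fold change on α-amanitin was −0.54 (SE 0.11, adjusted p = 0.00143). It passed between the stocks in every alternative, but the 2-fold limit was not reached with an offset of 64 (log2 0.95), with quantile normalization applied again (0.90), or without pool 1, 2 or 5 of Canton-S or pool 1 or 3 of unexposed Ama-KTT/M/2.

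*eIF2beta*, a subunit of the factor that carries the initiator tRNA, had log2 fold changes of 0.68 between the stocks (adjusted p = 1.05e-07) and −0.31 on α-amanitin (adjusted p = 4.87e-04). *eIF5*, which makes eIF2 hydrolyse its GTP, and *eIF5B*, which joins the subunits, were higher by 0.31 and 0.38 between the stocks, and each was lower on α-amanitin, with log2 fold changes of −0.25 and −0.24. By contrast, *eIF1*, which guards the choice of the start codon and is the brightest of these genes, did not pass in any comparison. It had 4269, 4447 and 4681 on α-amanitin (lowest, median and highest), 4351, 4733, 4841, 4766 and 4585 in unexposed Ama-KTT/M/2 and 4376, 4397, 4402, 4277 and 4451 in Canton-S, with overlap of all groups.

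All 5 subunits of eIF2B, the exchange factor through which stress kinases slow initiation, were higher in unexposed Ama-KTT/M/2 relative to Canton-S. Their log2 fold changes ran from 0.36 for *eIF2Balpha* to 0.57 for *eIF2Bdelta*, with a median of 0.40, and no pools overlapped. Among all genes, 28.7% were higher and 22.9% were higher without overlap. On α-amanitin, 4 of 5 were lower (median −0.24), beside 19.6% of all genes. The exception was *eIF2Bbeta*, with 560.2, 657 and 687 on α-amanitin (lowest, median and highest), 552, 627, 713, 692 and 697 in unexposed Ama-KTT/M/2 and 483, 477, 520.2, 509.9 and 475 in Canton-S. Its pools on the 2 foods overlapped (log2 −0.02, adjusted p = 0.863), while those of both Ama-KTT/M/2 groups lay above Canton-S (α-amanitin against Canton-S, log2 0.38, adjusted p = 4.90e-04).

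eIF3 is the largest initiation factor and a scaffold on the small ribosomal subunit. Of its 16 genes, 12 were higher in unexposed Ama-KTT/M/2 relative to Canton-S (median 0.33), beside 28.7% of all genes. On α-amanitin 11 were lower (median −0.14), beside 19.6% of all genes. On α-amanitin against Canton-S 11 were higher and 1 lower (median 0.16), beside 22.8% and 12.1% of all genes. The most different between the stocks, and on α-amanitin against Canton-S, was *eIF3d1*, whose human counterpart can bind the cap of some messenger RNAs. It had 3693, 3917 and 4249 on α-amanitin (lowest, median and highest), 4785, 4354, 4608, 4547 and 4579 in unexposed Ama-KTT/M/2 and 2614, 2536, 2506, 2574 and 2573 in Canton-S. None of the 3 groups overlapped. The difference between the stocks was 1.78-fold (log2 0.83, SE 0.05, limma adjusted p = 1.79e-09), and on α-amanitin the log2 fold change was −0.22 against non-toxic food (adjusted p = 0.00283) and 0.62 against Canton-S (adjusted p = 4.18e-08).

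The core subunits *eIF3a*, *eIF3b* and *eIF3c* had log2 fold changes of 0.57, 0.44 and 0.36 between the stocks and of −0.25, −0.19 and −0.19 on α-amanitin, all passing the test. *eIF3m* was different, since it did not pass between the stocks (0.09) and was lower on α-amanitin than in unexposed Ama-KTT/M/2 (−0.24). It also passed as lower against Canton-S (−0.16), a call that was lost with the replicate block, without Canton-S pool 1, 2, 3 or 5, and without pool 1, 3, 4 or 6 on α-amanitin. On α-amanitin the eIF3 differences were small. Of the 11 lower genes, *eIF3f1*, *eIF3h*, *eIF3i* and *eIF3l* had log2 fold changes between −0.14 and −0.13. None of these 4 passed with the replicate block or without pool 1 on α-amanitin, which leaves 7 lower genes, and *eIF3h* and *eIF3i* did not pass with quantile normalization applied again. Against Canton-S, 6 of the 11 higher eIF3 calls remained with the replicate block, and 7 remained with quantile normalization applied again or without both pools low in glue transcripts.

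In the eIF4 group, whose products select the messenger RNA, 2 of 12 genes were higher in unexposed Ama-KTT/M/2 relative to Canton-S and 1 was lower (median −0.05), beside 28.7% and 20.3% of all genes. On α-amanitin 2 were lower and 1 was higher (median 0.19), beside 19.6% and 21% of all genes, so that these counts stand near or under the background. *eIF4E1*, the general cap-binding protein, was one of those higher between the stocks. It had 2665, 2825 and 2914 on α-amanitin (lowest, median and highest), 3166, 3243, 3279, 3179.8 and 3088 in unexposed Ama-KTT/M/2 and 2319.9, 2410.3, 2417, 2546 and 2345 in Canton-S. No groups overlapped, with log2 fold changes of 0.40 between the stocks (adjusted p = 2.37e-06) and −0.19 on α-amanitin (adjusted p = 0.0035).

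*eIF4B*, which stimulates the helicase, was the other one. It had 1435, 1514 and 1565 on α-amanitin (lowest, median and highest), 1903, 1732, 1877, 1949 and 2142 in unexposed Ama-KTT/M/2 and 1561, 1636, 1542, 1673 and 1539 in Canton-S. The unexposed Ama-KTT/M/2 stood above both other groups, and the log2 fold changes were 0.27 between the stocks (adjusted p = 8.52e-04) and −0.34 on α-amanitin (adjusted p = 1.38e-04). However, 4 probe sets name *eIF4B*, and another of them was higher on α-amanitin (log2 0.25, adjusted p = 0.0316), so that the direction on α-amanitin depends on the probe set. Between the stocks this probe set passed as well (log2 0.35), whereas the other 2 did not (log2 0.16, adjusted p = 0.0962, and log2 0.04, adjusted p = 0.858). Both calls of *eIF4B* were lost with the median over all its probe sets.

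The helicase *eIF4A* and the scaffold *eIF4G1* did not pass in any comparison. *eIF4A* had 7328, 7503 and 7772 on α-amanitin (lowest, median and highest), 7926, 6378, 7701, 8089 and 8408 in unexposed Ama-KTT/M/2 and 7816, 7479, 6396, 7197 and 6706 in Canton-S, with overlap of all groups. Pool 2 of unexposed Ama-KTT/M/2 was the lowest of its group. Without that pool, *eIF4A* and *eIF4G1* were higher in unexposed Ama-KTT/M/2 relative to Canton-S (log2 0.18 with adjusted p = 0.0258, and 0.28 with adjusted p = 5.38e-04), so that 1 pool decides these calls.

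**Figure D3:**
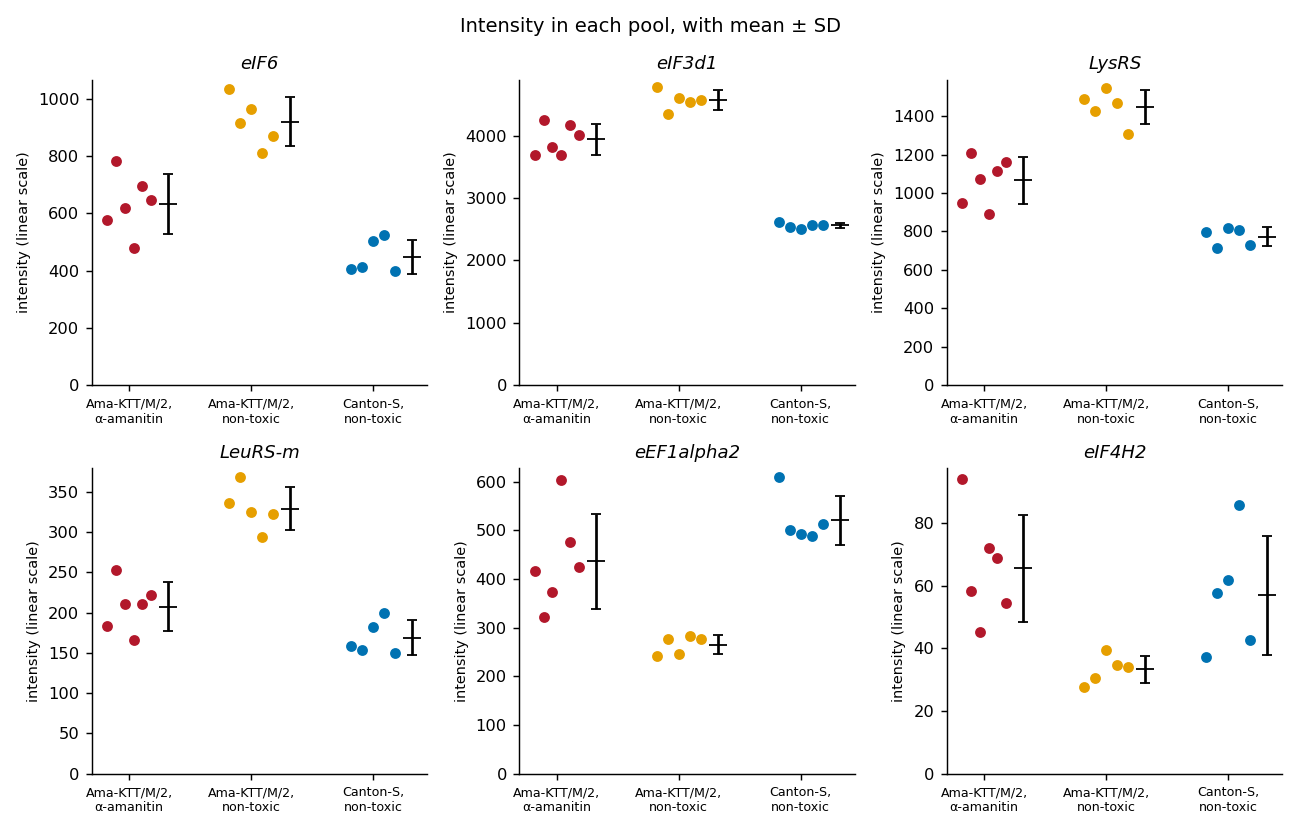
Intensity (y axis, linear scale, as deposited) of 6 members in each pool (points) of toxin-fed Ama-KTT/M/2 (red), unexposed Ama-KTT/M/2 (orange) and Canton-S (blue), with mean ± SD in black. *eIF6*, *eIF3d1*, *LysRS* and *LeuRS-m* are highest in unexposed Ama-KTT/M/2, while *eEF1alpha2* and *eIF4H2* are lowest there.

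*eIF4H2* was lower in unexposed Ama-KTT/M/2 relative to Canton-S and higher on α-amanitin, opposite to most members. Its name marks a relative of eIF4H, which like eIF4B stimulates the helicase in human cells. It had 45.4, 63.6 and 94.1 on α-amanitin (lowest, median and highest), 27.8, 30.4, 39.3, 34.8 and 34.0 in unexposed Ama-KTT/M/2 and 37.1, 57.6, 61.9, 85.6 and 42.6 in Canton-S. All pools on α-amanitin were above those on non-toxic food (log2 0.71, SE 0.16, limma adjusted p = 0.00254), whereas the stocks overlapped on non-toxic food (log2 −0.53, SE 0.16, adjusted p = 0.0145).

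Several factors have a second gene, and these genes are given here beside the general ones. The general genes *eIF3f1* and *eIF3g1* were higher in unexposed Ama-KTT/M/2 relative to Canton-S, by log2 0.26 and 0.22, as was *eIF3d1* above. Their relatives *eIF3d2*, *eIF3f2* and *eIF3g2* did not pass in any comparison, and neither did *eIF4E3*, *eIF4E4*, *eIF4E5*, *eIF4E6*, *eIF4E7* and *eIF4G2*. *eIF4E3* is known from the fly testis, where it is needed to make sperm, and *eIF4G2* is needed for the divisions of male germ cells. Their pools were widely spread within each group. *eIF4E3* had 103, 159.6 and 333 on α-amanitin (lowest, median and highest), 104, 147, 60.2, 161 and 142 in unexposed Ama-KTT/M/2 and 54.3, 129, 120.0, 184 and 65.9 in Canton-S.

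Likewise, *eIF4E5* had 81.4, 119 and 237 on α-amanitin (lowest, median and highest), 67.1, 93.1, 59.3, 92.0 and 93.4 in unexposed Ama-KTT/M/2 and 46.3, 102, 88.9, 135 and 63.2 in Canton-S. *eIF4G2* had 275, 364 and 514 on α-amanitin (lowest, median and highest), 284, 296, 250.2, 329 and 324 in unexposed Ama-KTT/M/2 and 300.4, 371, 313, 385 and 292 in Canton-S. The groups overlapped for both genes, and the log2 fold changes on α-amanitin were 0.54 (SE 0.23, adjusted p = 0.0824) and 0.29 (SE 0.13, adjusted p = 0.0961). Both were higher on α-amanitin without pool 3 of that group (adjusted p = 0.0453 for *eIF4E5* and 0.0312 for *eIF4G2*).

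In 2 of the 3 groups, 1 pool was the highest at all of these genes. For the 10 relatives, that is, the 9 genes above with *eIF4H2*, a set put together after their values were seen, pool 1 was the highest of the 6 pools on α-amanitin at 10 of 10 genes, and pool 4 was the highest of the 5 Canton-S pools at 10 of 10. In unexposed Ama-KTT/M/2 each pool was the highest at 1 to 3 of the 10 genes. Markers of the male germ line, *Mst84Da*, *Mst84Db*, *Mst87F*, *Mst98Ca*, *dj* and *betaTub85D*, were also highest in these 2 pools. Their mean level on the log2 scale was 6.88 to 8.40 on α-amanitin, highest in pool 1, and 5.94 to 7.41 in Canton-S, highest in pool 4. In unexposed Ama-KTT/M/2 it was 5.57 to 6.75, highest in pool 5, where the relatives had no common highest pool. All 6 markers were higher on α-amanitin than on non-toxic food in Ama-KTT/M/2 (median log2 fold change 1.34), whereas of the 10 relatives only *eIF4H2* passed there. Between the stocks, 0 of 6 markers passed (median −0.40). The part of male germ cells in the values of these genes was not tested. In RNA of whole larvae, fewer cells of a type and less RNA per cell cannot be told apart.

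Of the 5 elongation factor genes, 4 were higher and 1 was lower in unexposed Ama-KTT/M/2 relative to Canton-S (median 0.29). Of all genes, 28.7% were higher and 20.3% lower. On α-amanitin 1 was lower and 1 higher (median −0.08), beside 19.6% and 21% of all genes. These counts on α-amanitin stand near the background. *eEF1alpha2*, one of 2 fly genes for the protein that brings charged tRNAs to the ribosome, had the most negative difference of all members between the stocks. It had 323, 420.3 and 605 on α-amanitin (lowest, median and highest), 242, 277, 246, 283 and 277 in unexposed Ama-KTT/M/2 and 609, 500.1, 492, 488 and 514 in Canton-S. The unexposed Ama-KTT/M/2 lay below both other groups without overlap (log2 −0.93, SE 0.12, limma adjusted p = 1.07e-05 against Canton-S; log2 0.66, SE 0.12, adjusted p = 4.23e-04 for α-amanitin against non-toxic food).

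Its exchange factor subunits *eEF1delta* and *eEF1gamma* went the usual way, with log2 fold changes of 0.54 and 0.17 between the stocks, both passing, and of −0.28 (passing) and −0.10 (not passing) on α-amanitin. *eEF5*, also known as eIF5A, helps the ribosome over difficult peptide bonds, and was the brightest of this group. It had 10024, 10559.5 and 10889 on α-amanitin (lowest, median and highest), 10786, 11351, 11085, 11201 and 11369 in unexposed Ama-KTT/M/2 and 9869, 9637, 8313, 9327 and 8555 in Canton-S. Canton-S lay below both Ama-KTT/M/2 groups without overlap, by log2 fold changes of 0.29 on non-toxic food (adjusted p = 2.97e-04) and 0.21 on α-amanitin (adjusted p = 0.00443). *eEFSec*, the factor for selenocysteine, was dim, and its log2 fold change was 0.84 between the stocks (adjusted p = 6.94e-07), −0.04 on α-amanitin (adjusted p = 0.724) and 0.80 for α-amanitin against Canton-S (adjusted p = 1.03e-06).

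All 15 cytosolic synthetases were higher in unexposed Ama-KTT/M/2 relative to Canton-S (0.23 to 0.89, median 0.46), and all 15 were lower on α-amanitin than on non-toxic food (−0.62 to −0.21, median −0.42). The shares of all genes were 28.7% higher between the stocks and 19.6% lower on α-amanitin. On α-amanitin against Canton-S, 3 were higher, 2 were lower and 10 did not pass (median 0.12). Of all genes, 22.8% were higher and 12.1% lower there, so that these counts stand near the background. *LysRS*, the enzyme for lysine, had 893, 1092 and 1209 on α-amanitin (lowest, median and highest), 1488, 1428, 1549, 1467 and 1309 in unexposed Ama-KTT/M/2 and 798, 715, 819.7, 807 and 729 in Canton-S. None of its groups overlapped, and it was 1.85-fold higher in unexposed Ama-KTT/M/2 relative to Canton-S (log2 0.89, SE 0.08, limma adjusted p = 1.90e-07), with a log2 fold change of −0.44 on α-amanitin (adjusted p = 3.56e-04).

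*IleRS*, the enzyme for isoleucine, had the largest difference on α-amanitin among the cytosolic enzymes. It had 736, 906 and 991 on α-amanitin (lowest, median and highest), 1518, 1452, 1342, 1283 and 1255 in unexposed Ama-KTT/M/2 and 779.5, 782, 886, 896 and 742 in Canton-S. The pools on α-amanitin lay within or just above the range of Canton-S, apart from 1 below it, and under all those on non-toxic food (log2 −0.62, SE 0.08, limma adjusted p = 2.30e-05). *SerRS*, the brightest cytosolic synthetase, had log2 fold changes of 0.49 between the stocks, −0.48 on α-amanitin and 0.01 for α-amanitin against Canton-S, where it did not pass (adjusted p = 0.867).

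*ValRS* and *TrpRS*, the enzymes for valine and tryptophan, were lower on α-amanitin than in unexposed Ama-KTT/M/2, and their calls as lower against Canton-S depended on the setting. *ValRS* had 373, 400.5 and 428 on α-amanitin (lowest, median and highest), 624, 501, 619, 586 and 547 in unexposed Ama-KTT/M/2 and 425, 494, 510.2, 494 and 412 in Canton-S. Its pools on α-amanitin were below all those on non-toxic food and overlapped Canton-S, and its log2 fold changes were −0.50 on α-amanitin (adjusted p = 5.81e-05) and −0.21 for α-amanitin against Canton-S (adjusted p = 0.0308). The call against Canton-S was lost with the replicate block, without Canton-S pool 2, 3 or 4, without pool 1, 4 or 5 on α-amanitin, and without both pools low in glue transcripts. *TrpRS* had 758, 808 and 844 on α-amanitin, 1173, 1104, 1167, 1127 and 1129.8 in unexposed Ama-KTT/M/2 and 872, 942, 965, 955 and 919.7 in Canton-S. All 3 groups were apart, with log2 fold changes of −0.50 on α-amanitin (adjusted p = 6.55e-07) and −0.21 for α-amanitin against Canton-S (adjusted p = 0.00163). The call of *TrpRS* against Canton-S was lost with the median over all its probe sets.

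*TrpRS* has 3 probe sets, and one of them went the opposite way. The second had the same direction as the brightest (log2 0.49 between the stocks and −0.62 on α-amanitin). The third and dimmest had 98.5, 303 and 631 on α-amanitin (lowest, median and highest), 55.2, 60.4, 64.5, 63.3 and 76.3 in unexposed Ama-KTT/M/2 and 395, 209, 178, 121 and 320.4 in Canton-S. The unexposed Ama-KTT/M/2 was below both other groups without overlap (log2 −1.60, adjusted p = 0.00203 against Canton-S, and log2 1.92, adjusted p = 5.92e-04 for α-amanitin). The lowest pool on α-amanitin was pool 2 and the lowest of Canton-S was pool 4, which are also the pools with the lowest salivary glue transcripts of their groups. Which transcripts this probe set measures was not tested.

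**Figure D4:**
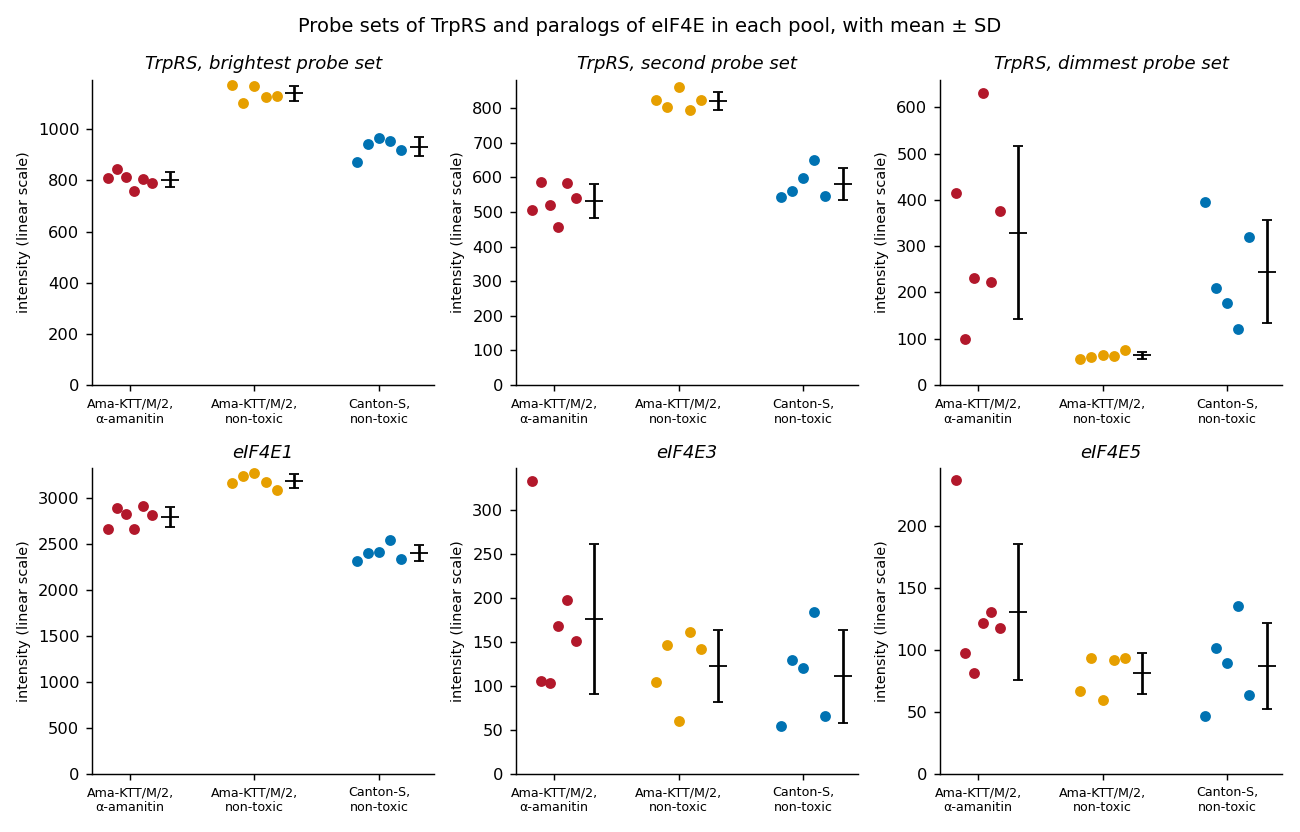
Intensity (y axis, linear scale) in each pool (points) of toxin-fed Ama-KTT/M/2 (red), unexposed Ama-KTT/M/2 (orange) and Canton-S (blue), with mean ± SD in black, for the 3 probe sets of *TrpRS* (top) and for *eIF4E1*, *eIF4E3* and *eIF4E5* (bottom). The dimmest *TrpRS* probe set is low in all 5 unexposed Ama-KTT/M/2 pools where the other *TrpRS* probe sets are high, and *eIF4E3* and *eIF4E5* are spread widely within each group, unlike *eIF4E1*.

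Of the 14 mitochondrial synthetases, 13 were higher in unexposed Ama-KTT/M/2 relative to Canton-S (median 0.64), beside 28.7% of all genes. On α-amanitin 12 were lower (median −0.36), beside 19.6% of all genes. On α-amanitin against Canton-S, 7 were higher and none lower (median 0.22), beside 22.8% and 12.1% of all genes. Of these 7 calls, 2 remained with quantile normalization applied again, and 3 remained with the replicate block or without Canton-S pool 5. *ValRS-m* passed as lower without Canton-S pool 5 (log2 −0.32, limma adjusted p = 0.0128) and without pool 1 or pool 2 on α-amanitin. *LeuRS-m*, the mitochondrial enzyme for leucine, had 166, 210.1 and 252 on α-amanitin (lowest, median and highest), 336, 368, 325, 293 and 323 in unexposed Ama-KTT/M/2 and 159, 154, 182, 199.7 and 149.8 in Canton-S. The unexposed Ama-KTT/M/2 lay above both other groups, and *LeuRS-m* was 1.87-fold higher there than in Canton-S (log2 0.90, SE 0.10, limma adjusted p = 1.81e-06). Its log2 fold change on α-amanitin, −0.64 (SE 0.10, adjusted p = 1.08e-04), was the most negative of all members.

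*AsnRS-m*, for asparagine, had 91.9, 107 and 128 on α-amanitin (lowest, median and highest), 181, 176, 183, 162 and 153 in unexposed Ama-KTT/M/2 and 82.2, 89.0, 105, 108 and 88.5 in Canton-S. It was high only in unexposed Ama-KTT/M/2, by log2 fold changes of 0.76 against Canton-S and −0.57 on α-amanitin (both passing). *PheRS-m*, for phenylalanine and the brightest of these genes, had the smallest passing log2 fold change between the stocks, 0.19 (adjusted p = 0.015) and −0.12 on α-amanitin (adjusted p = 0.114). *ValRS-m* was the only one of the 14 that did not pass between the stocks (0.16, adjusted p = 0.209), but was lower on α-amanitin than on non-toxic food (−0.40, adjusted p = 0.00418).

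For 9 amino acids, both the mitochondrial and the cytosolic enzyme had a probe set. The mitochondrial gene had the higher log2 fold change in 6 of 9 between the stocks, in 6 of 9 on α-amanitin and in 7 of 9 for α-amanitin against Canton-S. By the brightest probe sets, the widest gap was that of tryptophan, with 0.76 for *TrpRS-m* and 0.29 for *TrpRS* between the stocks. The other *TrpRS* probe sets had 0.49 and −1.60, so that the size of this gap depends on the probe set. Serine went the other way, with 0.22 for *SerRS-m* and 0.49 for *SerRS*. These differences between the enzymes of a pair were not tested.

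Another 29 genes of translation, not members by name, are given for comparison. Of these, 22 were higher and 1 was lower in unexposed Ama-KTT/M/2 relative to Canton-S (median 0.43), beside 28.7% and 20.3% of all genes. On α-amanitin 18 were lower and 2 were higher (median −0.25), beside 19.6% and 21% of all genes. On α-amanitin against Canton-S 16 were higher and none lower (median 0.19), beside 22.8% and 12.1% of all genes. The synthetases *GluProRS*, *alpha-PheRS* and *beta-PheRS* had log2 fold changes of 0.39, 0.43 and 0.65 between the stocks and of −0.25, −0.23 and −0.40 on α-amanitin, all passing. The scaffolds of the synthetase complex, *AIMP1*, *AIMP2* and *AIMP3*, were higher between the stocks by 0.84, 0.40 and 0.54. The termination factors *eRF1* and *eRF3* were higher between the stocks by 0.51 and 0.46.

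The 4 of these genes that reached 2-fold between the stocks were mitochondrial factors, beside 4.26% of all genes. They were *mEFTu1* at 1.18, *mEFG1* at 1.14, *mIF2* at 1.10 and *mEFTs* at 1.03. Other mitochondrial factors did not reach it, with *mRF1* at 0.95, *mIF3* at 0.61, *mEFTu2* at 0.43 and *mRRF1* at 0.24. On α-amanitin only *mEFG1* did so, at −1.04, beside 1.52% of all genes lower at that limit. The kinase gene *Lk6*, whose product phosphorylates eIF4E, went the other way, with −0.19 between the stocks and 0.30 on α-amanitin. *Paip2*, which inhibits the poly(A)-binding protein, was also higher on α-amanitin (0.55) but did not pass between the stocks (−0.32). The poly(A)-binding protein gene *pAbp* did not pass in any comparison.

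Ribosomal protein genes set the members in context. Of 69 mitochondrial ribosomal protein genes, 69 were higher in unexposed Ama-KTT/M/2 relative to Canton-S (median 0.97) and 68 were lower on α-amanitin (median −0.59). Of 41 cytosolic ribosomal protein genes, 32 were higher between the stocks (median 0.25) and 12 were lower on α-amanitin (median −0.11), with none in the opposite direction in either comparison. Of all genes, 28.7% were higher between the stocks and 19.6% were lower on α-amanitin. Among genes whose mean reached 64, these shares were 36.6% and 26%, so that the count of 12 lower stands near the background. The medians of the 14 mitochondrial synthetases, 0.64 and −0.36, and of the 15 cytosolic synthetases, 0.46 and −0.42, lay between those of the 2 ribosomal lists. No test was made between the lists.

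By pool, the mean log2 level of the 74 members was 9.12 to 9.26 on α-amanitin, 9.37 to 9.41 in unexposed Ama-KTT/M/2 and 8.94 to 9.14 in Canton-S. The pools of unexposed Ama-KTT/M/2 were thus close to each other and above all others, and the lowest pool on α-amanitin lay below the highest of Canton-S. Within groups, single pools were high or low at many members. Pool 2 was the highest of the 6 pools on α-amanitin at 42 of 74 members and pool 4 was the lowest at 41, while in Canton-S pool 4 was the highest at 37 and pool 5 the lowest at 32. The same counts over all genes were not made, so these cannot be read as particular to the members.

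The salivary glue genes, which the gland switches on late in the third instar, split the pools as well. *Sgs1*, *Sgs3*, *Sgs4*, *Sgs5*, *Sgs7*, *Sgs8* and *Eig71Ee* were all lower in unexposed Ama-KTT/M/2 relative to Canton-S (7 of 7, median −5.78) and all higher on α-amanitin (7 of 7, median 6.77). All 7 were under 16 in each unexposed Ama-KTT/M/2 pool and in pool 2 on α-amanitin. The mean log2 level of the glue genes was 4.14 (pool 2) to 12.85 (pool 4) on α-amanitin, 4.07 to 4.16 in unexposed Ama-KTT/M/2 and 6.81 (pool 4) to 11.65 (pool 5) in Canton-S. In both groups with glue transcripts, the pool with the lowest glue level was highest at the most members, and the pool with the highest glue level was lowest at the most members. Pool 5 on α-amanitin, however, had a glue level of 11.34 and the same mean over the members as pool 2 (9.26). A link between glue and member levels was not tested. The fat body genes *Lsp2*, *Fbp1* and *Fbp2* went the way of the glue genes, with 2 of 3 lower between the stocks (median −7.31) and 3 of 3 higher on α-amanitin (median 6.74). The mean log2 level of 6 midgut genes was 12.35 to 12.61 on α-amanitin, 12.13 to 12.32 in unexposed Ama-KTT/M/2 and 12.60 to 12.80 in Canton-S, so that the unexposed Ama-KTT/M/2 pools lay below all others. The 6 genes did not move together, since 3 were lower between the stocks, and on α-amanitin 2 were higher and 3 lower. Those lower on α-amanitin were *Jon65Aiii* (−0.30), *Jon65Aiv* (−0.18) and *betaTry* (−0.40). They did not pass between the stocks. The protease gene *Jon99Ci* had log2 fold changes of −1.504 between the stocks and 1.28 on α-amanitin, and the maltase gene *Mal-A1* had −0.99 and 1.07 in the same comparisons. The part of larval stage or of these tissues in the members' levels was not tested.

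In pool 2 on α-amanitin, whose glue genes were under 16 as in the unexposed pools, the mean over the members was 9.26, below the lowest pool of unexposed Ama-KTT/M/2 (9.37). This pool was not like the unexposed pools in all markers. Its *Lsp2* was 2774, against 2.57 to 1202 in unexposed Ama-KTT/M/2. Its *Fbp2* was 20.9, against at most 19.4 there, and its *Fbp1* lay near 0 as there. Whether the stage of pool 2 was that of the unexposed pools was not tested. Without this pool and pool 4 of Canton-S, an alternative chosen after seeing the data, 57 members were higher and 2 lower between the stocks, 49 were lower and 4 higher on α-amanitin, and 31 were higher and 2 lower on α-amanitin against Canton-S. The members gained on α-amanitin were *eIF4E5* and *eIF4E7*.

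**Figure D5:**
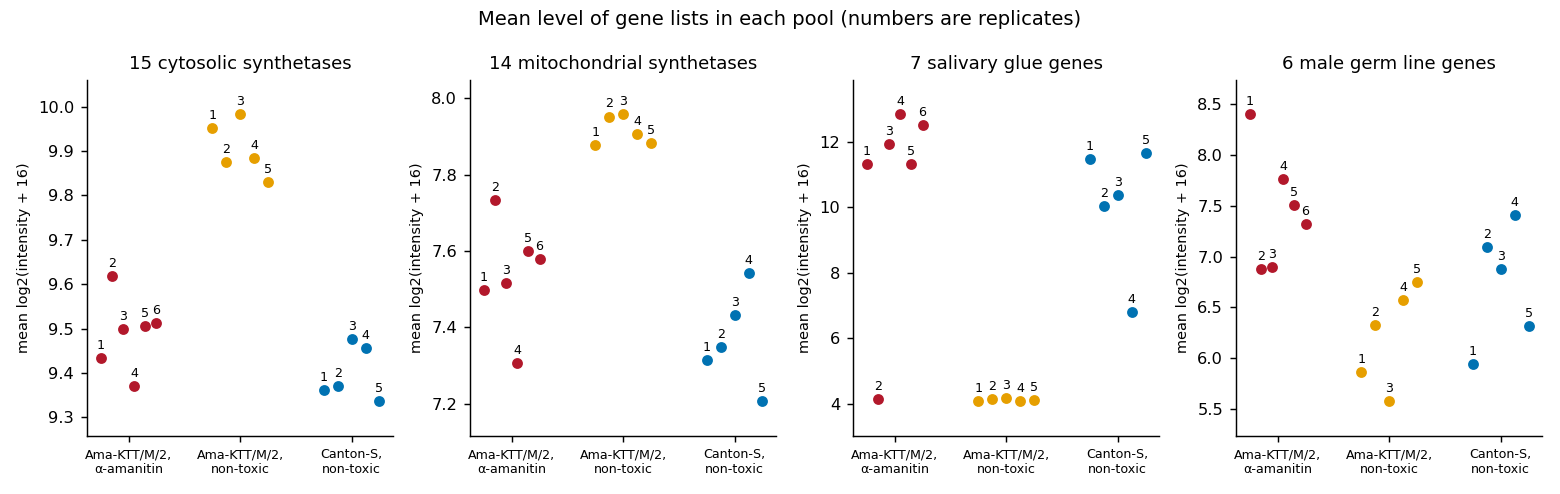
Mean log2(intensity + 16) (y axis) of 15 cytosolic synthetases, 14 mitochondrial synthetases, 7 glue genes and 6 male germ line genes in each pool, numbered by replicate, of toxin-fed Ama-KTT/M/2 (red), unexposed Ama-KTT/M/2 (orange) and Canton-S (blue). Both synthetase lists are highest in the 5 unexposed Ama-KTT/M/2 pools, where the glue genes are near background. Pool 2 on α-amanitin also has glue genes near background, and its synthetases are below those 5 pools.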

How the data were processed

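RNA of 16 pools of whole larvae was hybridised to Affymetrix Drosophila Genome 2.0 arrays, and groups were taken from the sample labels. The authors extracted the images with Affymetrix Expression Console 1.2, per the submitters' processing notes, and made the deposited intensities with Affymetrix Power Tools, by quantile normalization between arrays, mismatch adjustment and PLIER; these deposited intensities are linear. Of 18952 probe sets, 183 controls were left out. Probe sets were named by the platform's annotation, with symbols updated to the Release 6 gene table.

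After adding 16 and taking log2, all 16 arrays were fitted with limma 3.58.1 under R 4.3.3 (lmFit, eBayes) as 3 groups without covariates, in a procedure tested on simulated data. Benjamini-Hochberg adjustment covered the 18769 probe sets tested. The rank product test of the study's methods was not used. Members, gene lists and the rule for named genes were chosen with earlier results of these data known, so that counts of members are descriptions. Members named by rule were those at 2-fold, the brightest of each role, those opposite to their role's median, and relatives that differed in call. The rule also took the 3 largest and 3 smallest changes of each comparison among genes with a mean of at least 64. Pool values are printed for many of these, and for *TrpRS*, whose probe sets differed in direction. Other members are given by log2 fold change or by call. Array number and signal over background limit the precision. Alternatives were offsets of 1 and 64, a filter at 64, quantile normalization applied again, all probe sets of a gene, only the groups compared, array weights, a replicate block and leaving out pools. Sequences and promoter motifs were not used here. Figures were drawn with Python 3.11.15.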

Additional observations from a re-analysis of the deposited data

Results flagged for a closer look

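Of 90 groups of pool values examined for a highest or lowest pool that stood far from the next one, 4 were marked by Dixon's test at its 95% critical value, where chance marks about 1 in 20. *eEF1alpha2* was 609 in 1 Canton-S pool, with the next at 513.6. *eIF4E5* was 236.7 in pool 1 on α-amanitin, with the next at 130.6, and *eIF4E7* was 53.19 in the same pool, with the next at 28.04. *eIF3g2* was 46.18 in pool 2 of unexposed Ama-KTT/M/2, with the next at 98.01, and without this pool *eIF3g2* was higher in unexposed Ama-KTT/M/2 relative to Canton-S (log2 0.21, adjusted p = 0.0310).

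For 3 genes, a probe set that was not used for the counts had a log2 fold change of opposite sign to the brightest one of the gene in at least 1 comparison. For *TrpRS*, the dimmest of 3 probe sets had a log2 fold change of −1.601 between the stocks, against 0.2886 for the brightest, and of 1.917 on α-amanitin, against −0.497. For *eIF4EHP*, which encodes a cap-binding repressor of translation, its second probe set had 0.5949 between the stocks, against −0.06333, and −0.2977 on α-amanitin, against 0.1132. For *eIF4B*, 1 of 4 probe sets had 0.2459 on α-amanitin, against −0.3412. Which transcripts these probe sets measure was not tested.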

How the results depend on the processing

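The 59 calls between the stocks, 51 on α-amanitin and 37 on α-amanitin against Canton-S were recomputed under each alternative, and no called member changed sign. Between the stocks, *eEF1gamma*, *ValRS*, *AspRS-m*, *CysRS-m*, *PheRS-m* and *SerRS-m* did not pass with quantile normalization applied again, and *eEFSec* lies outside the filter at 64 by construction. The number at 2-fold between the stocks was 2 higher when 1 was added before log2, 0 when 64 was added, and 0 higher and 1 lower with quantile normalization applied again, where the median was 0.2756. On α-amanitin against Canton-S, that normalization gave 20 higher and 5 lower, and adding 1 gave 1 at 2-fold. Without both pools that stood apart in glue transcripts, 4 members were higher on α-amanitin than on non-toxic food. The causes were not tested.

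The labels do not say whether the replicate numbers pair the pools. Of 15 pairs of the same number, 5 had deviations correlated over 0.1 (range −0.49 to 0.34), and 9 of 30 best matches were to the own number. Between toxin-fed and unexposed Ama-KTT/M/2, the correlations for numbers 1 to 5 were 0.34, −0.03, 0.31, 0.28 and 0.10. This check has no reference level and cannot decide whether the pools were paired. With the number as a replicate block, on replicates 1 to 5, 21 members were higher and 1 lower on α-amanitin against Canton-S, and 45 were lower on α-amanitin, without *eIF3f1*, *eIF3h*, *eIF3i* and *eIF3l*, while the other medians were 0.3737 (stocks) and −0.2374 (α-amanitin).

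Leaving out 1 pool at a time gave 56 to 59 higher, 2 to 2 lower and 0 to 1 at 2-fold between the stocks (median 0.3627 to 0.3832). On α-amanitin it gave 44 to 49 lower and 2 to 4 higher (median −0.2487 to −0.2148), with 4 higher without pool 3 on α-amanitin. On α-amanitin against Canton-S it gave 24 to 38 higher and 1 to 4 lower (median 0.1359 to 0.1726), with 1 lower without pool 2 or pool 3 of Canton-S.

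Members near 0 that did not pass also changed sign. With quantile normalization applied again these were *eIF3g2* between the stocks (−0.01219), *eEF5* (0.001158), *eIF1* (0.01526), *eIF2Bbeta* (0.03789) and *eIF4A* (0.0731) on α-amanitin, and *SerRS* (−0.05076), *eIF3g2* (−0.03998) and *eIF4E4* (−0.01611) on α-amanitin against Canton-S. Without both pools, *eIF4E5* was 0.1167 and *eIF4E7* 0.07584 between the stocks. On α-amanitin, *eIF3g2* was 0.01068 after adding 1 and 0.008467 with the replicate block, and against Canton-S *eIF4E4* was −0.01312 with array weights and *eIF4B* 0.06973 over all its probe sets.

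Without single pools, log2 fold changes on both sides of 0 were found for *eIF3g2* (−0.03596 to 0.211), *eIF4E3* (−0.0122 to 0.3754), *eIF4E5* (−0.2031 to 0.1167) and *eIF4E7* (−0.231 to 0.07584) between the stocks. On α-amanitin they were found for *eIF2Bbeta* (−0.07794 to 0.02058), *eIF3f2* (−0.07347 to 0.08927), *eIF3g2* (−0.1842 to 0.06279) and *eIF4A* (−0.09397 to 0.005469), and on α-amanitin against Canton-S for *SerRS* (−0.01279 to 0.04449), *eIF3g2* (−0.01855 to 0.06143), *eIF4E4* (−0.06623 to 0.07938) and *eIF4E6* (−0.04288 to 0.06937).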
